A study of Homo sapiens with 18 samples.

Results

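The cytosolic ribosomal protein genes encode the protein parts of the small (RPS) and large (RPL) ribosomal subunits. They were taken by symbol from RefSeq: protein-coding genes on chromosomes 1 to 22 and X named RPL or RPS with a number, optionally ending in A, X, L or L and a digit, plus RPLP0 to RPLP2 and RPSA. The rule found 85 of 19974 protein-coding genes, on 21 chromosomes: 31 small subunit genes, 43 large subunit genes, 3 stalk genes and 8 paralogs. No measured value entered the rule. Their median length was 5035 bp, against 24170.5 bp over all protein-coding genes, with a range of 772 to 27723 bp. A strand was known for 68 of them, those with a RefSeq promoter entry, and 79 were at least 2 kb long. An end of 32 members lay within 1 kb of an end of another protein-coding gene.

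Ribosomal protein genes are transcribed by RNA polymerase II (Pol II) at high rates in growing cells. They are short, often hold small nucleolar RNA (snoRNA) genes in their introns, and their transcripts typically begin inside a run of pyrimidines, the 5′ terminal oligopyrimidine tract, through which their translation is controlled. Integrator cleaves nascent transcripts near gene starts, and INTS11 is its endonuclease. The C-terminal domain of Pol II carries phosphates: that on serine 2 (Ser2P) typically builds up toward the gene end, while that on tyrosine 1 (Tyr1P) has been tied in human cells to promoters and enhancers.

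Chromatin immunoprecipitation and sequencing (ChIP-seq) was performed in HCT116, a human colon cancer cell line, whose INTS11 carries an auxin-inducible degron (INTS11-AID), a tag through which auxin (IAA) triggers loss of the protein. All libraries share this tagged line, Control included, and the labels do not say whether the line is 1 clone. Each of Pol II, Tyr1P and Ser2P has 2 numbered Control and 2 numbered IAA libraries. Beside them stand 2 inputs and 4 Pol II libraries that carry no number, 1 each labelled Control, IAA, EGF and IAA+EGF. A single protocol text covers all samples: serum withdrawal for 14 h, IAA at 500 µM over 1 h, epidermal growth factor (EGF) at 100 ng per µl over 30 min, and interferon beta at 2000 U over 1 h. It does not say which library received which. Title and file name disagree for the unnumbered libraries labelled IAA and EGF, so these go by their labels. Nothing states that replicates came from separate cultures, so their spread may be technical.

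The deposited files are peak lists, not counts. After removal of peaks that overlap input peaks, they held 17707 to 27169 peaks for numbered Pol II, 27701 to 35424 for unnumbered Pol II, 30127 to 38485 for Tyr1P, 37013 and 15270 for Ser2P in Control, and 99001 and 88503 for Ser2P with IAA. Depth estimated from the lists was 2.95 to 13.6 fragments per kb, and the 2 libraries of a group differed most for Ser2P in Control (13.6 and 3.30). Among marker genes, 7 of 10 colon epithelial genes had a Pol II peak at an end in all 8 Pol II libraries, and VIL1 and LGALS4 had none in any. None of 5 liver genes had one in any library, none of 7 blood genes had one in all 8, and of 7 neuron and muscle genes SYP did. The degron acts on protein, so no value here checks the loss of INTS11. With 2 libraries against 2, the exact permutation test used below (two-sided) cannot go under p = 0.333.

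The starts of these genes show the tract in sequence. The windows below are RefSeq sequence on GRCh38.p14, from 45 bases before to 20 bases from the annotated start, 5′ to 3′ on the gene's strand. Capitals mark the unbroken run of C and T that crosses the start, where it has at least 5 letters. RPL41, RPL12, RPLP1 and RPL3 are shown as the 4 members with the strongest Pol II peaks in Control, RPL13 as the member that lost its Pol II peak, RPS28 as a member whose strongest Ser2P peak changed place, and RPL10L as a member with no edge peak of any antibody.
RPL41, chr12:56116588-56116652, plus strand: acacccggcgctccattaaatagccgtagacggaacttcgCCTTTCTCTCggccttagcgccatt
RPL12, chr9:127451387-127451451, minus strand: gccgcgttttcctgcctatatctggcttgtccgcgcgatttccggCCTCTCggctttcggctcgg
RPLP1, chr15:69452773-69452837, plus strand: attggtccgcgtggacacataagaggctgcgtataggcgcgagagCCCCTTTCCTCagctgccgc
RPL3, chr22:39319604-39319668, minus strand: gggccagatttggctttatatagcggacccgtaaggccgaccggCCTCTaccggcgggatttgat
RPL13, chr16:89560637-89560701, plus strand: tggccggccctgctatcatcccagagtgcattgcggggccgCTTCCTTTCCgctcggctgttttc
RPS28, chr19:8321451-8321515, plus strand: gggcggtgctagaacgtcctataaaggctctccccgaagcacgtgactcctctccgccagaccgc
RPL10L, chr14:46651762-46651826, minus strand: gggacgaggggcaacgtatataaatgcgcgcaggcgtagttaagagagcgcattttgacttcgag

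A run of at least 5 C or T letters crossed an annotated start in 51 of 68 members (75%), against 10.8% of 15812 genes with an entry. RPL13 has 3 annotated starts, and the one shown has a run of 10 letters. RPS28 and RPL10L have no such run at the annotated start. Other motifs were searched on both strands in the 300 bases from 250 before to 50 after the start. CCGGAAG, the core that ETS factors bind, was found in 24 members (35.3%, against 16.5% of all genes), and AAGATGGC, the YY1 core, in 7 (10.3%, against 4.67%). GGGCGG, the Sp1 box, was found in 40 (58.8%, against 64.2%), and TATAAA in 7 (10.3%, against 12.4%). None of these motifs contains another.

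A peak was counted at a gene's edge when its summit lay within 1 kb of either end. Nearly all members had a Pol II edge peak: 82 and 82 of 85 in Control and 77 and 81 with IAA. Over all protein-coding genes the shares were 57.9% and 59.6% in Control and 50.7% and 55.7% with IAA. In the unnumbered libraries the members numbered 83, 82, 82 and 83 (Control, IAA, EGF, IAA+EGF). The mean share was 96.5% ± 0 (SD, n = 2) in Control and 92.9% ± 3.33 (SD, n = 2) with IAA (exact permutation p = 0.333). Tyr1P edge peaks stood at 83 and 83 members in Control and 81 and 83 with IAA. The inputs held an edge peak at 1 and 0 members. Among 1045 ribosomal protein pseudogenes away from coding genes, 11 and 13 had a Pol II edge peak in the Control libraries.

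The 3 members without a Pol II edge peak in any numbered library were all paralogs: RPL10L and RPL39L, copies known from testis, and RPL26L1. For RPL26L1 this depends on where its gene record begins: both of its RefSeq promoter starts lie inside the record, over 1 kb from its outer end, and its strongest Pol II peak was interior in all 8 Pol II libraries. RPL26L1 had 12 fragments stacked at an edge summit in the unnumbered library labelled Control and 15 in that labelled IAA+EGF. RPL10L and RPL39L had no edge peak for any antibody in any library. The other 5 paralogs had a Pol II edge peak in every numbered library: RPL3L (known from muscle), RPL7L1, RPL22L1, RPL36AL and RPS27L. The peak at RPL3L had 39 and 54 stacked fragments in Control and 20 and 22 with IAA, and an end of RPL3L lies within 1 kb of MSRB1, so the peak cannot be assigned to either gene. The large subunit gene RPL6 also has both promoter starts over 1 kb inside its record, whose outer end lies within 1 kb of PTPN11. The summits counted at the start of RPL6 had offsets of -7340 and -7355 bp in Control and -7280 and -7276 bp with IAA. They cannot be assigned to either gene, yet RPL6 counts in the edge and start shares.

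Loss of a peak was called when both Control libraries had it and neither IAA library did, and gain in the reverse case. RPL13, a large subunit gene, was the one member that lost its Pol II edge peak, while 3.02% of all genes did. Its Control summits lay 2 bp and 46 bp from an annotated start and had 138 and 136 stacked fragments, at ranks 899 of 22489 and 2794 of 27169 in the lists. With IAA the nearest summits lay 1089 bp and 1070 bp upstream of the start, just outside the window, with 64 and 97 fragments. A peak was thus still called beside the gene, and counting any base of a peak inside the window gave no lost member. In all 4 unnumbered libraries the RPL13 summit stayed within 25 bp of a start, with 289 to 344 fragments. The Tyr1P summit at RPL13 was also present in every library, with 322 and 358 fragments in Control and 196 and 208 with IAA. Without IAA replicate 2, the number of members that lost a Pol II edge peak was 5, and the share of all genes under that setting was not counted.

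Counting only peaks at the start, RPS25, a small subunit gene, also lost its Pol II peak, so 2 of 68 oriented members did, against 3.08% of all oriented genes. Its Control summits lay 33 and 39 bp past the start with 43 and 57 fragments, and the nearest IAA summits were 12445 bp upstream and 3521 bp downstream. In the 4 unnumbered libraries a Pol II summit lay 25 to 31 bp past the start of RPS25 with 182 to 242 fragments, the one labelled IAA included. Its Tyr1P summits lay 36 and 30 bp past the start in Control and 43 bp in IAA replicate 2, and the nearest in IAA replicate 1 was 3647 bp downstream. The start of RPS25 lies within 1 kb of TRAPPC4, so peaks there cannot be assigned to either gene. No member gained a Pol II edge peak, against 0.34% of all genes. For Tyr1P no member lost or gained an edge peak, while 1.48% of all genes lost and 0.421% gained one.

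**Figure D1:**
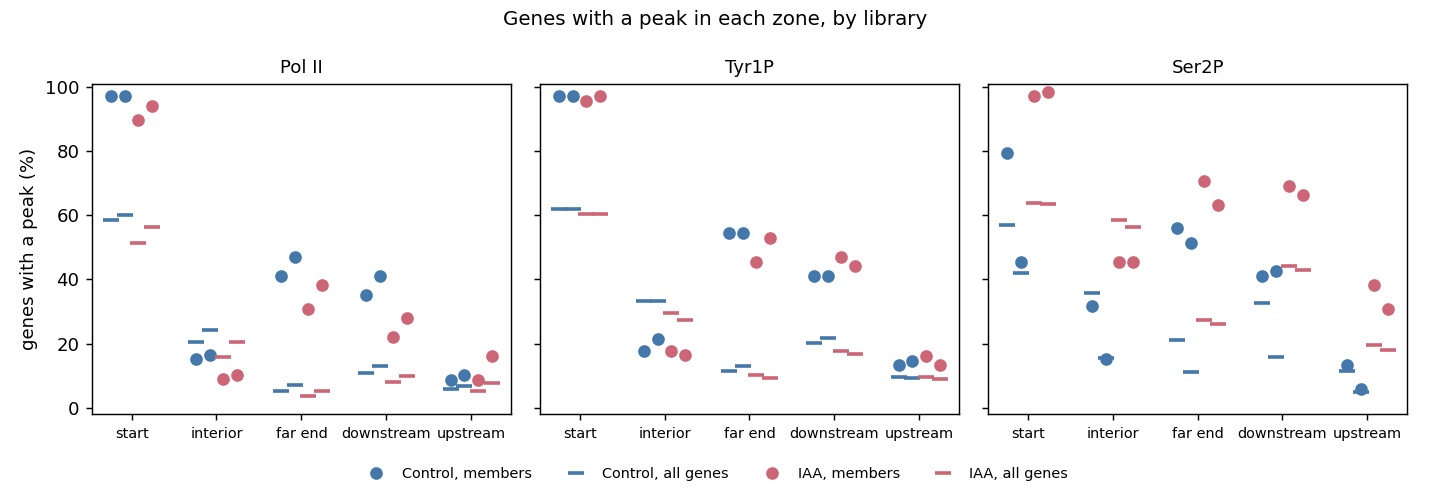
Share of genes with a peak (percent) in each zone, by antibody. Circles are the ribosomal protein genes and dashes all protein-coding genes in the same library, with Control in blue and IAA in red; the 4 marks of a zone are Control 1, Control 2, IAA 1 and IAA 2. Ser2P start peaks stand at 54 and 31 of 68 members in Control and 66 and 67 with IAA.

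How strong a member's edge peak was among those of other genes was read as its position. All genes with an edge peak in all 4 numbered libraries of an antibody were ordered by the authors' −log10 q of the strongest edge peak, and position is the percentile (100 is the strongest). For Pol II, 77 members stood among 9754 ranked genes. Their median position was 82.8 and 76.4 in the Control libraries and 59.2 and 61.4 in the IAA libraries. The mean of these medians was 79.6 ± 4.56 (SD, n = 2) in Control and 60.3 ± 1.5 (SD, n = 2) with IAA, a difference of -19.3 points. Both IAA values lay below both Control values. Of the 77 members, 53 (68.8%) stood lower in both IAA libraries than in both Control libraries, against 35.9% of all ranked genes, and 12 stood higher, against 35.5%. Genes that start high have more room below, so the same was counted among genes with a mean Control position over 75: 37 of 46 members (80.4%) stood lower, against 65% of 2347 genes.

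The size of that change depends on the measure of peak strength. Ordered by the estimated fragments at the summit, the Pol II difference was -16.9 points, and with start peaks only it was -22.9. Ordered by the authors' fold enrichment it was -3.72. The median stack at members' edge peaks was 2.00 and 1.88 times that of all genes' edge peaks in Control (72 against 36 and 90 against 48 fragments) and 1.5 and 1.47 times with IAA (45 against 30 and 66 against 45).

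Small and large subunit genes were also read apart. Small subunit medians were 85.9 and 76.4 in Control and 65.1 and 58.2 with IAA, with 19 of 29 ranked members lower in both IAA libraries and 4 higher. Large subunit medians were 80.6 and 77.0 in Control and 57.8 and 61.1 with IAA, with 28 of 40 lower and 7 higher. Over all ranked genes 35.9% stood lower and 35.5% higher. The 27 ranked hosts of snoRNA genes had medians of 85.4 and 78.6 in Control and 54.7 and 55.2 with IAA. The 50 without a snoRNA gene had 81.7 and 76.1 in Control and 62.2 and 62.2 with IAA. Differences between these classes were not tested.

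**Figure D2:**
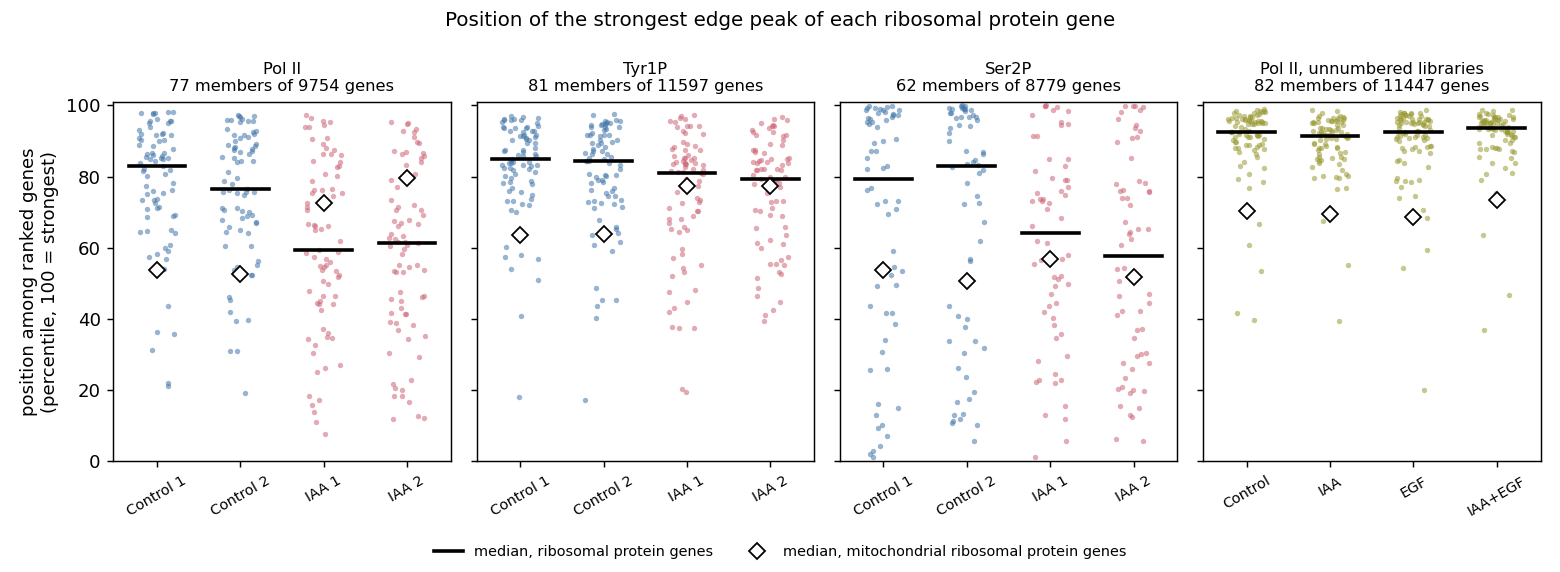
Position (percentile among ranked genes, 100 is the strongest) of the strongest edge peak of each ribosomal protein gene, by library; each dot is a gene, bars are medians and diamonds the medians of mitochondrial ribosomal protein genes. The Pol II medians of the members lie at 82.8 and 76.4 in Control and at 59.2 and 61.4 with IAA, while in the unnumbered libraries they lie between 91.5 and 93.6.

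The strongest Pol II peaks in Control belonged to RPL41, the shortest ribosomal protein, RPL12 and RPLP1, both of the stalk region where translation factors dock, and RPL3, which reaches toward the catalytic centre. RPL41 stood at 98.1 and 97.1 in Control and at 84.3 and 69.2 with IAA, with stacks of 154, 176, 77 and 102 fragments. RPL12 stood at 97.9 and 97.3 in Control and at 78.6 and 79.7 with IAA. RPLP1 stood at 98.0 and 96.8 in Control and at 75.5 and 84.0 with IAA. RPL3 stood at 97.6 and 96.9 in Control and at 61.8 and 60.5 with IAA. All 4 were lower in both IAA libraries, without overlap. For RPL41 and RPL3 the positions come from different peaks. Their strongest peak lay at the start in both Control libraries and at the far end in both IAA libraries. The far end of RPL41 lies within 1 kb of ZC3H10, so that peak cannot be assigned to either gene. The 4 were picked by their Control positions, which leaves room mainly below. Among all genes with a mean Control position over 75, 65% stood lower.

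The other stalk genes were lower with IAA as well. RPLP0, the base of the stalk, stood at 93.9 and 92.4 in Control and at 66.2 and 54.4 with IAA. These are different peaks, at the start in both Control libraries and at the far end in both IAA libraries. RPLP2, the partner of RPLP1, stood at 43.6 and 46.1 in Control and at 7.58 and 12.7 with IAA. The start of RPLP2 lies within 1 kb of PIDD1.

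Among the lowest positions in Control were those of RPS21 and RPL29. RPS21 stood at 21.2 and 30.9 in Control and at 44.9 and 18.4 with IAA, so its groups overlap. RPL29 stood at 35.8 and 19.3 in Control and at 46.3 and 21.7 with IAA, again with overlap.

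Some further genes were picked after their values were seen. RPL19 had the largest Pol II change downward among the members, from 75.2 and 70.6 to 13.9 and 11.8. RPS27, whose start lies within 1 kb of RAB13, went from 97.9 and 95.6 to 50.8 and 45.6. RPL22 went the other way, from 59.0 and 39.7 to 89.1 and 86.5.

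Among the paralogs, RPL7L1, known for a role in ribosome assembly, stood higher with IAA, at 80.2 and 84.3 in Control and 97.3 and 95.0 with IAA. These positions come from different peaks: its strongest Pol II peak lay at the far end, within 1 kb of PEX39, in both Control libraries and at the start in both IAA libraries. The far-end peak cannot be assigned to either gene. RPL22L1 stood lower, at 81.9 and 89.2 in Control and 57.4 and 66.6 with IAA. RPL36AL was lower too, at 71.1 and 71.1 in Control and 47.9 and 61.4 with IAA. RPL3L stood at 60.7 and 64.3 in Control and 34.5 and 12.2 with IAA. The groups of RPS27L overlapped, at 64.7 and 74.7 in Control and 84.1 and 66.0 with IAA.

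**Figure D3:**
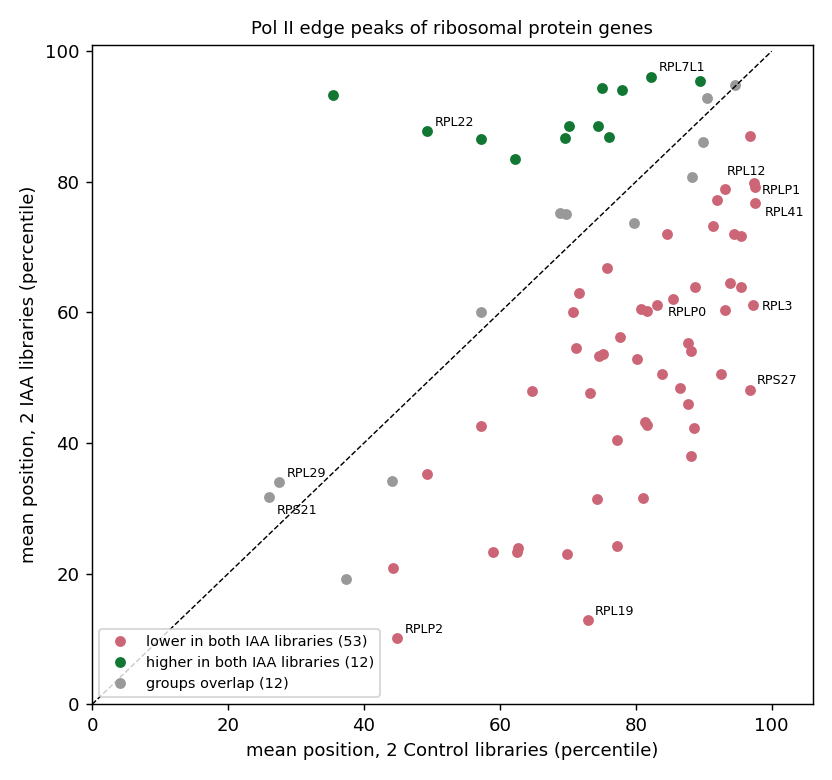
Mean Pol II position of each ranked ribosomal protein gene in the 2 IAA libraries (y axis, percentile) against the 2 Control libraries (x axis, percentile); the dashed line marks equal positions. Red marks the 53 members lower in both IAA libraries, green the 12 higher in both and grey the 12 whose groups overlap; RPL22 lies far above the line and RPL19 far below it.

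The unnumbered Pol II libraries showed no such difference. Ranked among 11447 genes, 82 members had a median position of 92.6 in the library labelled Control, 91.5 in that labelled IAA, 92.6 in that labelled EGF and 93.6 in that labelled IAA+EGF. Between the libraries labelled IAA and Control, 1 member stood lower by over 10 points, against 12.4% of all genes, and 3 stood higher, against 12.3%. With EGF, 9 stood lower, against 21.4%, and 6 higher, against 20.8%. In the library labelled Control, 56 of the 82 members already stood above position 90. These could not stand higher by over 10 points, so the counts of higher members were limited beforehand. With 1 library per label there is no test. The unnumbered libraries also stand apart in the strength of these peaks, with median stacks of 185.5 to 273 fragments at members, against 45 to 90 in the numbered ones.

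For Tyr1P, 81 members stood among 11597 ranked genes. Their median position was 84.8 and 84.3 in Control and 80.9 and 79.5 with IAA, means of 84.6 ± 0.354 and 80.2 ± 1.00 (SD, n = 2 each). Of these members 45 stood lower in both IAA libraries, against 36.9% of all ranked genes, and 12 stood higher, against 35.6%. Among genes with a mean Control position over 75, 57.8% of members and 56.8% of all genes stood lower, so this share was near that of other high genes. The sign of the difference of medians turned when peaks were ordered by fold enrichment: it was -4.43 points by −log10 q and 23.6 by fold.

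The highest Tyr1P positions in Control were those of RPS9, RPL5, RPL41 and RPS6. RPS9 stood at 97.1 and 97.2 in Control and 94.2 and 91.5 with IAA. RPL5, part of the 5S particle, stood at 95.8 and 97.5 in Control and 95.7 and 92.5 with IAA. RPL41 stood at 96.7 and 95.6 in Control and 81.3 and 84.4 with IAA. RPS6, the substrate of the S6 kinases, stood at 96.0 and 95.8 in Control and 88.7 and 87.4 with IAA. All 4 were lower with IAA without overlap, RPL5 by the smallest margin. They were picked by their Control positions, which leaves room mainly below. Among all genes with a mean Control position over 75, 56.8% stood lower. Among the lowest were RPS29 and RPLP2. RPS29 stood at 40.9 and 40.2 in Control and 37.4 and 46.5 with IAA, and RPLP2 at 51.0 and 45.3 in Control and 20.2 and 51.4 with IAA, both with overlap. The start of RPS29 lies within 1 kb of LRR1 and that of RPLP2 within 1 kb of PIDD1. Peaks there cannot be assigned to either gene of a pair.

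Tyr1P and Pol II marked the same starts. Every oriented member with a Pol II start peak also had a Tyr1P start peak in the library of the same condition and number (66 of 66 in each Control library, 61 of 61 and 64 of 64 with IAA), as did 99.1% to 99.5% of all genes. The Tyr1P summit lay a median of 9 and 12 bp from the Pol II summit in Control and 23 and 25.5 bp with IAA.

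Pol II summits at the start were more widely spread around it with IAA, to both sides. They lay past the start in 60 and 59 of 66 members in Control and in 47 of 61 and 48 of 64 with IAA. From the lower to the upper quartile, the offsets of members spanned 32 to 58.5 bp and 30 to 54 bp past the start in Control, and 21 to 91 bp and 14.8 to 97.2 bp with IAA. RPL9 and RPS18, named after their values were seen, had Control summits 59 and 40 bp and 44 and 46 bp past the start, while their IAA offsets were -275 and -255 bp and -542 and -564 bp, upstream of it. The start of RPL9 lies within 1 kb of LIAS and that of RPS18 within 1 kb of VPS52. The upstream summits cannot be assigned to either gene of a pair. The median offset of members was 42 and 40 bp past the start in Control and 60 and 63.5 bp with IAA, and over all genes it was 39 and 40 bp in Control and 76 and 82 bp with IAA. Summits within 150 bp of the start were found for 58 and 60 of 66 members in Control, and for 45 of 61 and 47 of 64 with IAA. In all genes that share was 64.7% and 65.2% in Control and 53.1% and 51.3% with IAA. In the unnumbered libraries the members' median offset was 39 bp (Control), 41 bp (IAA), 52 bp (EGF) and 51 bp (IAA+EGF).

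Ser2P was distributed differently. In Control the strongest Ser2P peak of most members lay not at the start but past the far end of the gene. Of 67 and 66 oriented members with a peak, 48 and 49 had their strongest one at the far end or up to 5 kb downstream, with a median of 920.5 and 877 bp past the annotated end. It lay at the start in 11 and 8 members (16.4% and 12.1%), against 59.3% and 57.6% of all genes and 52.0% and 51.2% of genes of 2 to 10 kb. With IAA it lay at the start in 34 and 36 of 67 members (50.7% and 53.7%), against 62.1% and 63.2% of all genes. The mean share at the start was 14.3% ± 3.04 in Control and 52.2% ± 2.11 with IAA (SD, n = 2 each, exact permutation p = 0.333), a difference of 38.0 percentage points. Over all genes the difference was 4.19 points and over genes of 2 to 10 kb 9.30 points.

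**Figure D4:**
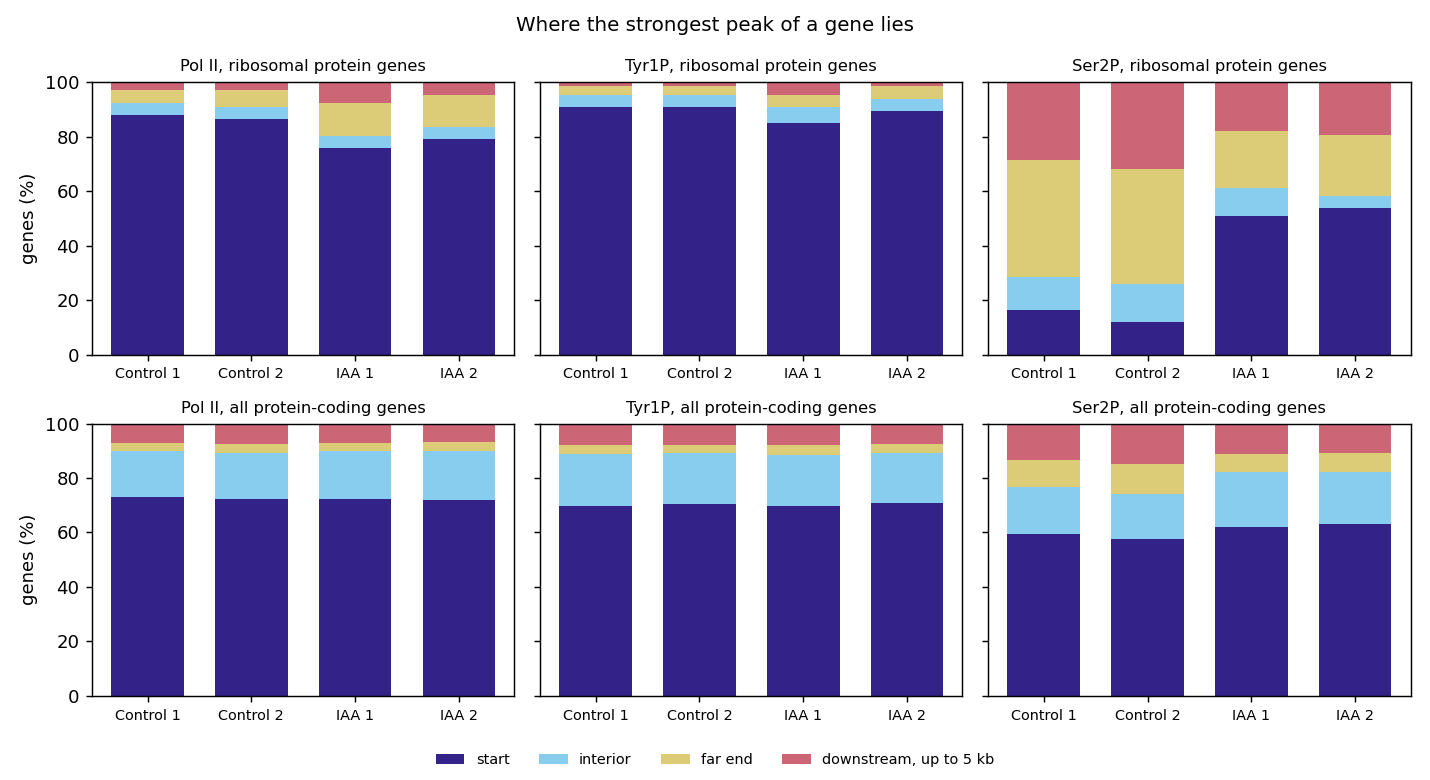
Share of genes (percent) whose strongest peak lies at the start, in the interior, at the far end or up to 5 kb downstream, in the numbered libraries of each antibody, for ribosomal protein genes (top) and all protein-coding genes (bottom). For Ser2P the start share of the members is 16.4% and 12.1% in Control and 50.7% and 53.7% with IAA.

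The strongest Ser2P peak lay beyond the start in both Control libraries and at the start in both IAA libraries for 21 of 66 members (31.8%), against 6.21% of 9146 genes and 10.9% of genes of 2 to 10 kb. No member moved the other way, against 1.51% of all genes. Members had more room for this move, since 55 of them began beyond the start. Of these 55 members 38.2% moved, against 17.5% of all genes and 25.4% of genes of 2 to 10 kb that began there. The 21 were RPL3, RPL7A, RPL10, RPL10A, RPL12, RPL15, RPL27, RPL36, RPL36AL, RPL37A, RPLP1, RPS3, RPS3A, RPS10, RPS13, RPS14, RPS21, RPS26, RPS27A, RPS28 and RPS29. The start of RPS29 lies within 1 kb of LRR1, so its start peak cannot be assigned to either gene. Its Ser2P summits with IAA had offsets of -374 and -509 bp from the start. Its strongest Pol II peak was interior in both Control libraries. The starts of RPL7A, RPL12, RPL36AL, RPS10, RPS27A and RPS28 also lie within 1 kb of another coding gene end. In that order the neighbours are MED22, LRSAM1, MGAT2, RPS10-NUDT3, CLHC1 and NDUFA7. Start peaks there cannot be assigned to either gene of a pair. Upstream Ser2P summits with IAA were also found for RPL36AL (-210 and -187 bp) and RPL10 (-518 and -474 bp). The difference in the start share was 32.8 to 40.1 points in every alternative tried, among them lists cut to equal length and members with no other coding gene end within 1 kb (36.4 points).

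A few of the 21, picked after their values were seen, show the move. In RPLP1, a gene of 3388 bp, the strongest Ser2P summit lay 701 and 758 bp past the far end in Control, with 206 and 70 fragments, and 47 and 44 bp past the start with IAA, with 220 and 240. In RPL12, a gene of 3733 bp, it lay 1288 and 1300 bp past the far end in Control and 123 and 84 bp past the start with IAA. In RPS28, a gene of 1845 bp, it lay 1198 and 1249 bp past the far end in Control and 77 and 70 bp past the start with IAA. RPL3 is the longest of these at 6742 bp, and its strongest summit went from 1311 and 1634 bp past the far end to 65 and 18 bp before the start. The start of RPL12 lies within 1 kb of LRSAM1 and that of RPS28 within 1 kb of NDUFA7. The far end of RPS28 lies within 1 kb of KANK3. Peaks at these ends cannot be assigned to either gene of a pair.

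**Figure D5:**
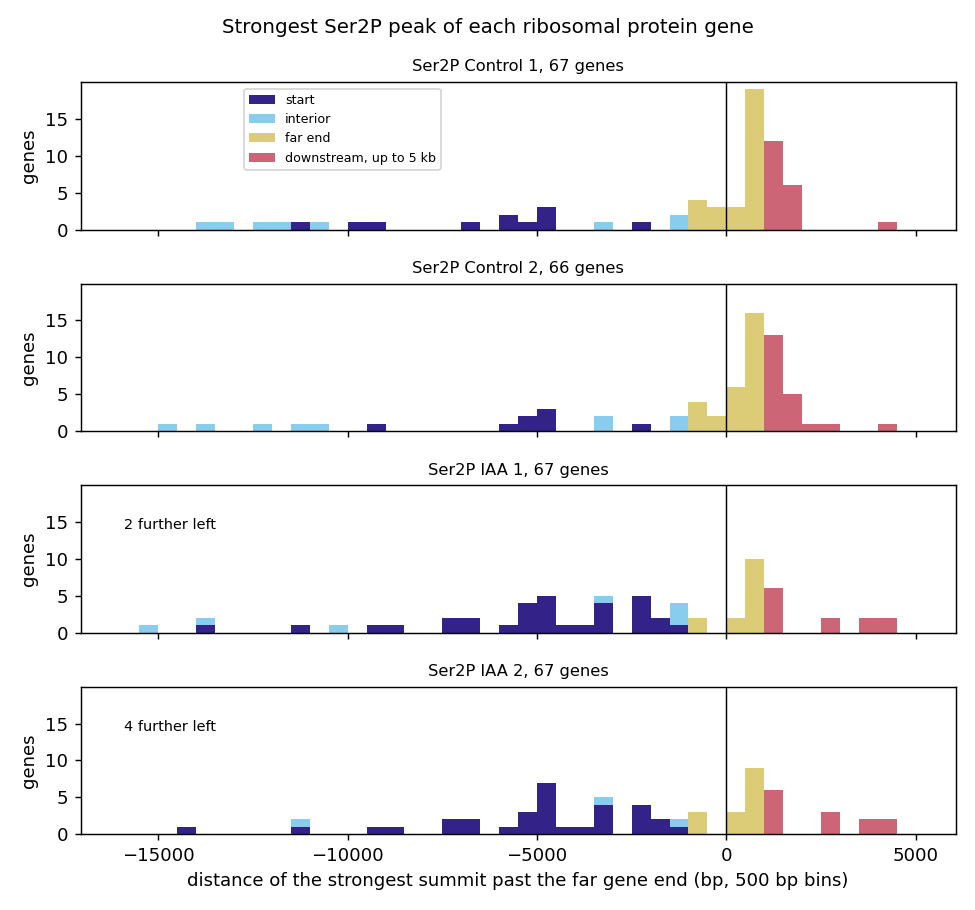
Number of ribosomal protein genes (y axis) by the distance of their strongest Ser2P summit past the far gene end (x axis, bp, 500 bp bins; negative values lie inside the gene or before it), for each Ser2P library; colours give the zone. In Control 41 and 43 of the peaks at the far end or downstream lie beyond the annotated end, and with IAA 24 and 25 do.

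The 4 members highest for Ser2P in Control kept their strongest peak at the far end in all 4 libraries. RPL26 stood at 99.82 and 99.99 in Control and 99.97 and 99.96 with IAA, with summits 729, 766, 819 and 818 bp past its end and stacks of 426, 307, 422 and 448. RPL7L1 stood at 99.8 and 99.8 in Control and 99.9 and 99.9 with IAA, with summits 741, 763, 763 and 716 bp past its end. RPL41 stood at 99.7 and 99.3 in Control and 95.3 and 93.5 with IAA, and RPL4 at 99.3 and 99.6 in Control and 99.8 and 99.9 with IAA. The far end of each of these 4 lies within 1 kb of another coding gene (KRABD2, PEX39, ZC3H10 and SNAPC5), as it does for 16 of the 68 oriented members, so the peak cannot be assigned to either gene. Among the lowest were RPL37A and RPL32. RPL37A stood at 2.87 and 11.2 in Control and 35.8 and 27.6 with IAA, and RPL32 at 4.17 and 10.8 in Control and 22.1 and 5.76 with IAA. RPL37A stood higher in both IAA libraries, and the groups of RPL32 overlapped.

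At the start itself, Ser2P peaks were missing in Control from many members that had a Pol II peak there. Of 66 such members, 53 and 31 also had a Ser2P start peak (80.3% and 47.0%), against 93.1% and 68.5% of all genes. With IAA 60 of 61 and 64 of 64 had one, against 97.4% and 96.8%. In all, 54 and 31 of 68 members had a Ser2P start peak in Control and 66 and 67 with IAA. The groups do not overlap, and the lower Control value comes from the shallowest Ser2P library. A Ser2P start peak was gained by 13 members (19.1%), against 6.46% of all oriented genes and 9% of those of 2 to 10 kb: RPL7A, RPL10, RPL10A, RPL12, RPL18, RPL29, RPL37A, RPLP2, RPS12, RPS23, RPS25, RPS26 and RPS27A. Without Control replicate 1, 36 members gained one, and the share of all genes under that setting was not counted. Of the 13 named, the starts of RPL7A, RPL12, RPL18, RPLP2, RPS25 and RPS27A lie within 1 kb of another coding gene end. Start peaks there cannot be assigned to either gene of a pair. At either edge, RPL12, RPL29 and RPS12 gained a Ser2P peak (3.53%, against 6.69% of all genes) and no member lost one, against 0.17%. Without Control replicate 1 that count was 20, with lists of equal length 8, and with any base of a peak inside the window 0. Shares of all genes under these settings were not counted.

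RPL12 had 193 and 206 fragments at its strongest Ser2P edge peak with IAA, RPL29 had 132 and 137, and RPS12, which holds 3 snoRNA genes, had 125 and 147. These were 3 of 5 members that had no Ser2P edge peak in either Control library. The other 2 were RPL10L and RPL39L, which had none with IAA either.

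More members had Ser2P peaks in other zones with IAA. Interior peaks, more than 1 kb inside both ends, were found in 25 and 12 of 79 members in Control and in 36 and 36 with IAA. They were gained by 17 members (21.5%), against 19.8% of all genes of that length and 8.64% of genes of 2 to 10 kb, the class of 66 of the 79 members, and lost by 0, against 0.155%. By their order in the IAA lists the first were RPL27A, RPL22L1, RPL13A, RPL5, RPL37 and RPS27A. The interior peak of RPL27A lay in the top 3.27% and 5.91% of the IAA lists with 196 and 202 fragments, and that of RPL22L1 in the top 8.02% and 7.68% with 88 and 110. With lists cut to equal length only 2 members gained one and the difference in share was 4.43 percentage points, in place of 22.2, so this result moves with list length.

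Downstream peaks, up to 5 kb past the far end, were present in 28 and 29 of 68 members for Ser2P in Control and in 47 and 45 with IAA. They were gained by 14 members (20.6%), against 11.7% of all genes, and RPL3 alone lost one, against 0.569%. Among members with one in both Control libraries 1 of 23 lost it, against 3.85% of 2337 genes. At the far end itself, 38 and 35 members had a Ser2P peak in Control and 48 and 43 with IAA. There 11 members gained one, against 8.09%, and RPS27A and RPL10A lost one, against 0.904%. Many genes have no far-end Ser2P peak to lose. Among members with one in both Control libraries 2 of 32 lost it, against 9.18% of 1558 genes.

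Pol II went the other way at these places. Far-end Pol II peaks were found in 28 and 32 of 68 members in Control and 21 and 26 with IAA, and 7 members lost one (10.3%, against 1.06% of all genes and 2.15% of genes of 2 to 10 kb): RPL7A, RPL36, RPL37A, RPLP2, RPS9, RPS26 and RPS28. Many genes have no far-end peak to lose. Among members with one in both Control libraries 7 of 27 lost it, against 22.7% of 737 genes. Downstream Pol II peaks stood at 24 and 28 members in Control and 15 and 19 with IAA, and 6 members lost one, against 1.67%: RPL9, RPL10A, RPL29, RPL32, RPL35 and RPS27A. Here 6 of 21 members with one in both Control libraries lost it, against 16.8% of 1573 genes. Interior Pol II peaks were lost at RPL31, RPL34, RPS3 and RPS23, 4 of 79 members, against 2.69%.

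The place of the strongest Pol II peak of a member also differed. It lay at the start in 59 and 58 of 67 members in Control, and in 50 of 66 and 53 of 67 with IAA. The mean share was 87.3% ± 1.06 in Control and 77.4% ± 2.37 with IAA (SD, n = 2 each, exact permutation p = 0.333), against 72.7% ± 0.663 and 72.1% ± 0.422 over all genes. It left the start in both IAA libraries for 7 of 66 members (10.6%), against 2.94% of all genes: RPL3, RPL13, RPL13A, RPL17, RPL35A, RPL41 and RPLP0. RPL3 thus had its strongest Ser2P peak move to the start while its strongest Pol II peak moved away from it.

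By position, Ser2P edge peaks of 62 ranked members had medians of 79.4 and 83.0 in Control and 64.0 and 57.5 with IAA, among 8779 genes. Of these members 29 stood lower in both IAA libraries, against 29.8% of all genes, and 16 higher, against 31.3%. Among genes with a mean Control position over 75, 25 of 32 members (78.1%) stood lower, against 50.7%. The difference of medians was -20.5 points, but -10.1 without Control replicate 2, 10.0 with start peaks only and 11.2 by fold enrichment. The median of the differences gene by gene was -5.15 points. The lower Ser2P position does not hold for the start. The stalk genes differed from each other: RPLP0 stood at 97.7 and 98.9 in Control and 81.5 and 76.3 with IAA, RPLP2 at 87.1 and 93.6 in Control and 73.2 and 54.1 with IAA, and RPLP1 at 85.4 and 82.7 in Control and 94.8 and 92.7 with IAA.

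The paralogs also varied in Ser2P. RPL22L1 stood at 98.8 and 98.6 in Control and 29.6 and 42.3 with IAA, with stacks of 341 and 149 in Control and 85 and 112 with IAA. RPL36AL stood at 30.7 and 39.9 in Control and 51.7 and 42.3 with IAA. RPS27L overlapped between groups, at 43.6 and 61.9 in Control and 73.7 and 37.3 with IAA. RPL26L1 and RPL3L had a Ser2P edge peak in Control replicate 1 and in both IAA libraries.

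Peak widths were read at the same edge peaks. The median Pol II width of members was 522 and 481.5 bp in Control and 435 and 491 bp with IAA, against 544, 549, 410 and 510 bp over all genes. Ser2P edge peaks were wider at members in Control, at medians of 888 and 785 bp against 613 and 476 bp, and not with IAA, at 718 and 748 bp against 786 and 839 bp. The part of depth in these widths was not tested.

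Related lists give the comparison. The 77 nuclear genes of the mitochondrial ribosome, which makes the proteins encoded in mitochondrial DNA, showed the opposite Pol II order: the medians of 71 ranked genes were 53.7 and 52.8 in Control and 72.5 and 79.5 with IAA, with 17 lower and 42 higher. The 7 ranked genes of the colon epithelial list had Pol II medians of 96.0 and 94.2 in Control and 44.5 and 43.6 with IAA, with 6 lower and 1 higher, so a lower Pol II position was also seen in genes outside the ribosome. Of 27 ranked translation factor genes 14 stood lower and 8 higher, and of 25 ranked ribosome biogenesis genes 7 lower and 8 higher. Over all genes ranked for Pol II, 35.9% stood lower and 35.5% higher. EEF2, the translocation factor, stood at 96.3 and 96.4 in Control and 46.5 and 49.3 with IAA, and EEF1A1, which delivers aminoacyl-tRNA, at 99.5 and 98.7 in Control and 91.3 and 81.3 with IAA. NCL (nucleolin) stood at 95.6 and 89.5 in Control and 51.5 and 64.0 with IAA, while NPM1 (nucleophosmin) stood at 97.0 and 98.2 in Control and 97.7 and 97.9 with IAA, with overlap.

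FAU, whose product is a ribosomal protein fused to a ubiquitin-like domain, and the ribosome-bound scaffold RACK1 fall outside the symbol rule. FAU stood at 53.2 and 28.6 in Control and 87.3 and 89.0 with IAA for Pol II. RACK1 stood at 43.9 and 65 in Control and 54.2 and 64.3 with IAA, with overlap.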

How the data were processed

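The deposited peak lists, 1 per library, were called per sample. MACS2 2.2.7.1, deepTools 3.5.1, Picard 2.25.7, Bowtie2 2.3.4.1 and Trim Galore 0.6.6 are named, with build hg38, per the submitters' processing notes. The options used are among the steps not given in the sources used here. Each deposited peak carries the authors' fold ratio, −log10 p, −log10 q and score, used only within a list or through ranks. Peaks on chromosomes 1 to 22 and X sharing no base with an input peak were kept. Stacked fragments and depth were solved from the deposited fold and −log10 p (Poisson tail), trying whole fragment numbers only. The −log10 p recomputed from the solution had a relative error under 0.0002 for at least 95.6% of peaks in every list. Member stacks lay below the highest stack of their list, but some came near it. In the unnumbered library labelled IAA and in Ser2P IAA replicates 1 and 2, members' edge stacks reached 364, 422 and 448 fragments. The highest stacks of these lists were 386, 439 and 482. Those stood at or near 2 times the shortest peak width (386, 440 and 482). Whether strong stacks were held down by such a limit was not tested. Genes and starts came from RefSeq tables on GRCh38.p14. Placement and the depth solution were tested on simulated data. Python 3.11.15, numpy 2.4.6, pandas 2.3.3 and scipy 1.17.1 were used.

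Members, lists and tests were chosen with earlier results of these data known. Named genes are members that lost or gained an edge peak, the 4 highest and 3 lowest Control positions per antibody, members without a Pol II edge peak, paralogs, stalk genes, up to 6 interior gains, and a few genes of the other lists. Alternatives were other windows, equal list lengths, −log10 q of at least 5, input peaks kept, any base of a peak, fold ordering, left-out libraries and the replicate block. The depth behind a single peak is its stack, since the lists hold no read totals. Results for some genes that this rule names are not reported here.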

Additional observations from a re-analysis of the deposited data

Results flagged for a closer look

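Several changes had opposite directions for different antibodies, with both IAA libraries above both Control libraries for one and below for the other. These differences between antibodies were not tested. Ser2P minus Pol II, the change in the share of members with a peak differed by 17.6 percentage points at the edges, 40.4 at the start, 22.8 at the far end, 28.5 in the interior and 39.0 downstream. The Ser2P change minus the Tyr1P change at the far end was 18.4 points. The Tyr1P change minus the Pol II change downstream was 17.6 points. Ser2P lists were longer with IAA (99001 and 88503 peaks, against 37013 and 15270) and numbered Pol II lists were not (17707 and 23059, against 22489 and 27169), and the part of list length in these differences was not tested beyond the lists of equal length described under the processing.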

How the results depend on the processing

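The lists hold no read totals, and Ser2P Control replicate 2 is shallow (3.30 fragments per kb). The share of members with a Ser2P interior peak differed by 22.2 percentage points, and by 4.43 with lists of equal length. Lost Pol II edge peaks numbered 1, against 2 with a 500 bp window, 2 with equal lists and 0 with any base of a peak, and 1 to 5 with 1 library left out. Lost Tyr1P edge peaks numbered 0, and 0 to 2 with 1 library left out. Lost Ser2P edge peaks numbered 0, against 2 with 500 bp and 1 with equal lists. Gained Ser2P edge peaks numbered 3, against 10 with 500 bp, 8 with equal lists, 0 with any base, and 3 to 20 with 1 library left out. Interior Ser2P gains numbered 17, against 2 with equal lists and 11 with any base, and interior losses 0 to 6 with 1 library left out. Start gains numbered 13, and 13 to 36. Shares of all genes were not counted under these alternatives. The alternative background of genes of 2 to 10 kb changes no member value.

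The difference in median position was -3.72 for Pol II ordered by fold, in place of -19.3, and -22.5 to -16 with 1 library left out. For Tyr1P it was 23.6 ordered by fold. For Ser2P it was 11.2 ordered by fold, 10.0 with start peaks only, -27.5 for members with no other coding gene end within 1 kb, and -24.5 to -10.1 with 1 library left out. The replicate numbers do not pair the libraries: the correlation of same-numbered deviations was 0.0175 (Pol II), -0.0406 (Tyr1P) and -0.00208 (Ser2P). With the replicate block, the median over genes of the within-number difference was -20.1 for Pol II, -5.28 for Tyr1P and -5.15 for Ser2P. With 2 complete pairs the same values arise without the numbers, so the move from -20.5 to -5.15 comes from taking the median of differences in place of the difference of medians, and the block itself changes no value. Its exact p cannot go under 0.5. Ordering by stacked fragments, start peaks only and the neighbour filter were chosen after seeing the data, as were the results on Ser2P start gains and on the strongest peak.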
